A study of Mus musculus with 6 samples.

Results

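The transcripts of 10 growth factor genes were followed in sorted CD24- and CD24+ Mvt1 cells: the EGF family ligands Areg, Ereg, Hbegf, Tgfa, Btc and Nrg1, the PDGF chains Pdgfa, Pdgfb and Pdgfc, and Hgf. They were chosen by name, as the annotations equal to one of these symbols, and make up 10 of the 14766 gene annotations in the 6 libraries. The Mvt1 line was derived from a mammary carcinoma of an FVB/N mouse, and the labels call the samples mammary epithelial cancer cells. Cells were stained for CD24, sorted by flow cytometry into a CD24- and a CD24+ group, and grown as adherent cells in DMEM with fetal bovine serum, and no treatment was described for either group. RNA came from 3 plates of each group, so replicates are plates of 1 cell line, and whether they came from separate sorts was not described. Differences tied to CD24 cannot be told apart from others between the sorted groups.

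EGF family ligands are made as membrane-anchored precursors, and proteases cut them at the cell surface to release the soluble factor. Areg, Ereg, Hbegf, Tgfa and Btc bind the receptor EGFR, Hbegf, Btc and Ereg also bind ERBB4, and Nrg1 binds ERBB3 and ERBB4. PDGF chains form dimers that bind PDGFRA and PDGFRB and are best known as signals to mesenchymal cells, and HGF binds the receptor MET and is usually made by stroma. In the mammary gland amphiregulin is the EGFR ligand best known for a role in the growth of the ducts at puberty.

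The sequences that bear on the comparison are the start regions of ligand genes that changed in opposite directions, shown for the letters found there, and reads of the ligands as sequenced. RefSeq start regions were available for 6 of the 10 genes: Areg, Btc, Tgfa, Pdgfa, Pdgfc and Hgf. Those not in the table were Ereg, Hbegf, Nrg1 and Pdgfb. The 250 bases before the start of Areg and Tgfa, which were lower in CD24+ cells, and of Pdgfc, which was higher, read as follows on GRCm38.p6, 5′ to 3′ on the strand of the gene. Capitals mark the motifs that were searched and found on either strand.
Areg (chr5:91139349-91139598, plus strand): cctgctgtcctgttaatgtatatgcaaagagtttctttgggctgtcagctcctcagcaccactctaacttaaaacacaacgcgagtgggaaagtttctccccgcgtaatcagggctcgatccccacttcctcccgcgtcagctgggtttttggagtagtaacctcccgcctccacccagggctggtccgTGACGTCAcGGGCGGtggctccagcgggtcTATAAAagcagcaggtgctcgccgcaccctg
Tgfa (chr6:86194972-86195221, plus strand): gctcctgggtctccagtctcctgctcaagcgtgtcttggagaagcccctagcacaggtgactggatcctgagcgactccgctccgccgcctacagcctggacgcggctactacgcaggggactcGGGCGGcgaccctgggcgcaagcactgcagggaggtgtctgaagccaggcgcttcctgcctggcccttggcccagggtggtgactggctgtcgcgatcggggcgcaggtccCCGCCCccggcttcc
Pdgfc (chr3:81036166-81036415, plus strand): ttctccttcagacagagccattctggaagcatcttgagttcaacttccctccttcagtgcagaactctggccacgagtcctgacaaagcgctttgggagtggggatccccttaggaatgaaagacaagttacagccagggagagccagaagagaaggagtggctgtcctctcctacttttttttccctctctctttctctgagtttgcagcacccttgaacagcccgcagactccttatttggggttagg

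The Areg region held a cAMP response element (TGACGTCA) 61 bases, a GC box (GGGCGG) 52 bases and a TATA box (TATAAA) 31 bases before the start, counted to the first letter of each match. Among 32817 RefSeq start regions of the same length, 1.55% held the cAMP response element, 32.7% the GC box and 12.4% the TATA box on either strand. Tgfa held GC boxes that began 126 and 15 bases before the start. Pdgfa, not printed because its start region overlaps an annotated exon, also held GC boxes, and neither gene held another of the motifs searched. Pdgfc and Btc held none of the motifs searched. The other motifs searched were AP-1 (TGANTCA, in 6.75% of the start regions), the CCAAT box (CCAAT, in 33.8%) and an E-box (CACGTG, in 6.02%). These matches describe letters in a window and not binding.

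The most frequent read sequence inside the main coding exons is given for Areg as well as for Ereg and Nrg1, for which no start region was available. Each is the sense strand on GRCm38, in lower case because no part is marked.
Areg (chr5:91143517-91143563, plus strand, exon 3 of Areg-201): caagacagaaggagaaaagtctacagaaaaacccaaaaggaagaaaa
Ereg (chr5:91090069-91090115, plus strand, exon 5 of Ereg-201): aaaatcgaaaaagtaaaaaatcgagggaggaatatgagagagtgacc
Nrg1 (chr8:31818427-31818473, minus strand, exon 13 of Nrg1-203): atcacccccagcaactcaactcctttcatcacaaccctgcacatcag

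The Areg sequence was read 11, 9 and 19 times in CD24- replicates 1, 2 and 3 and 12, 10 and 12 times in the CD24+ replicates. The Ereg sequence was read 0, 0 and 0 times in the CD24- replicates and 1, 4 and 5 times in the CD24+ replicates. The Nrg1 sequence was read 0, 0 and 2 times against 0, 1 and 6 times. Single sequences were therefore rare, and the levels below rest on sums over many sequences, such as 1871 distinct sequences for Areg and 2315 for Ereg.

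The libraries held 9046025 to 25692147 mapped reads, of which 6491833 to 19100844 carried a gene annotation (71.8% to 74.3%), and CD24+ replicate 1 was the shallowest. One read was worth 0.0524 to 0.157 CPM (counts scaled to the gene reads and TMM factor of each library), and a counting interval or floor covers counting error only. Cd24a, the gene of the sorted marker, had 12.1, 11.5 and 6.99 CPM in the CD24- libraries and 73.3, 85.5 and 72.5 CPM in the CD24+ libraries, with a log2 fold-change of 2.91 (SE 0.17, adjusted p = 5.39e-07, edgeR quasi-likelihood test with Benjamini-Hochberg adjustment). The labelled epithelial type was checked against its markers: Krt8 and Krt18 were abundant, whereas Epcam and Cdh1 had 6 and 2 reads in all and Elf5 had 0. The 6 luminal markers summed to 1847 to 2040 CPM in CD24- and to 759 to 902 CPM in CD24+ libraries, and the 3 tested of them were lower in CD24+ cells. The 5 basal markers summed to 0.316 to 1.24 against 6.61 to 14.04 CPM, with Krt5 and Krt14 at 1 and 3 reads. Most of the CD24+ sum was Acta2 (6.13, 5.48 and 12.4 CPM). Trp63 had 3 reads in CD24- against 51 in CD24+ libraries, and Oxtr had 8 against 3. The 6 fibroblast markers summed to 5.75 to 10.4 against 14.9 to 20.3 CPM, with Lum and Thy1 at 0. Pdgfra, also a receptor of these ligands, made up most of that sum in every library, and the 4 tested fibroblast markers were higher. The 6 leukocyte markers summed to 43.4 to 76.2 against 7.17 to 9.60 CPM, nearly all of it Cd68, with Ptprc at 2 reads and Cd3e at 0, and Cd68 was lower. The 5 endothelial markers summed to 2.70 to 4.64 against 0.786 to 2.04 CPM. Acta2, Col1a1, Col1a2 and Dcn reached 1 CPM in at most 1 CD24- library and in 3 CD24+ libraries, and Cdh5 in 3 CD24- and 0 CD24+ libraries, so these markers passed the filter on low counts through the group where they were high. The part of these markers in the ligand results was not tested.

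The ligand genes divided between the groups. Ereg, Nrg1, Pdgfa and Pdgfc were higher in CD24+ cells, Tgfa, Areg and Btc were lower, and Hbegf did not pass the test. Of the 10 genes, 8 had enough reads for the test, and Pdgfb and Hgf did not. Thus 4 rose and 3 fell, where 46.1% of the 11125 genes tested were called in either direction, 23.8% higher and 22.3% lower, so a call alone sets no gene apart here. The values of the groups did not overlap for 7 of the 8, where this held for 57.3% of all genes tested. The median log2 fold-change of the 8 genes was 0.25, and that of all genes tested was 0.02. In bulk RNA, fewer cells that express a gene and less RNA per cell cannot be told apart.

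**Figure D1:**
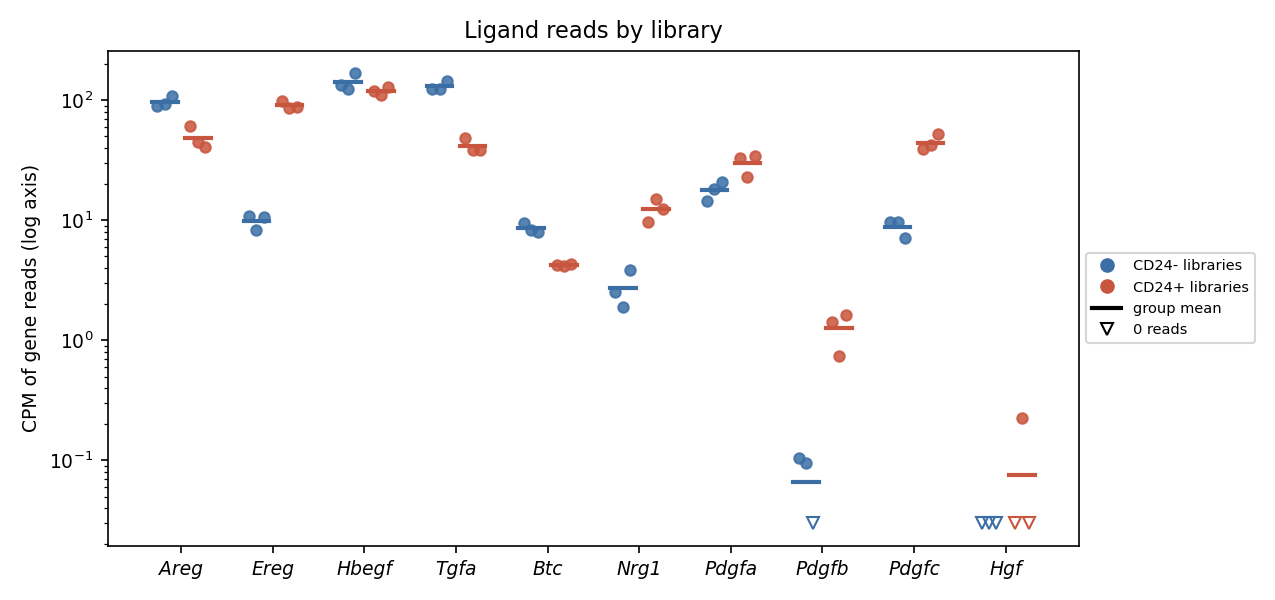
Reads of the 10 ligand genes in each library, in CPM of gene reads on a log axis, with CD24- libraries in blue, CD24+ libraries in red and a bar at each group mean (n = 3); open triangles mark libraries with 0 reads. Ereg sat at 8.34 to 10.8 CPM in CD24- and at 86.4 to 99.1 CPM in CD24+ libraries, and only for Hbegf and Hgf did the groups overlap.

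Ereg encodes epiregulin, an EGFR and ERBB4 ligand. It had 10.8, 8.34 and 10.6 CPM in CD24- replicates 1, 2 and 3 and 99.1, 86.4 and 88.6 CPM in CD24+ replicates 1, 2 and 3. All CD24+ libraries were far above all CD24- libraries, and the spread within each group was small beside the gap. The log2 fold-change was 3.20 (SE 0.12, adjusted p = 3.52e-08), a 9.21-fold higher level, and 96.6% of tested genes had a smaller absolute change.

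Tgfa encodes transforming growth factor alpha, an EGFR ligand. It had 124.0, 124.6 and 144.9 CPM in the CD24- libraries and 48.1, 38.7 and 38.8 CPM in the CD24+ libraries. Every CD24+ library lay below every CD24- library, and CD24+ replicate 1 was the highest of its group. Its log2 fold-change was -1.66 (SE 0.11, adjusted p = 1.19e-06), a 3.17-fold lower level.

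Areg encodes amphiregulin. It had 88.9, 92.5 and 108.6 CPM in the CD24- libraries and 60.9, 44.9 and 40.7 CPM in the CD24+ libraries. The groups did not overlap, and CD24+ replicate 1, the shallowest library, stood nearest to the CD24- libraries. The log2 fold-change was -1.01 (SE 0.14, adjusted p = 0.000263), a 2.01-fold lower level.

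Btc encodes betacellulin, which binds EGFR and ERBB4. It had 9.47, 8.24 and 8.001 CPM in the CD24- libraries and 4.25, 4.18 and 4.35 CPM in the CD24+ libraries. The groups did not overlap, although the shallowest library held only 27 Btc reads. That is a log2 fold-change of -1.01 (SE 0.17, adjusted p = 0.000735), close to that of Areg.

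Hbegf encodes heparin-binding EGF-like growth factor. It had 133.6, 124.1 and 168.0 CPM in the CD24- libraries and 120.0, 109.9 and 128.8 CPM in the CD24+ libraries. The highest CD24+ library lay above the lowest CD24- library. The log2 fold-change was -0.25 (SE 0.12, adjusted p = 0.109) and its 95% interval ran from -0.51 to 0.01, which does not show equal levels. Without CD24- replicate 3, the highest library, it was -0.11 (adjusted p = 0.36), and over the 16 alternatives the adjusted p ran from 0.054 to 0.36.

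Nrg1 encodes neuregulin 1, whose receptors are ERBB3 and ERBB4. It had 2.52, 1.90 and 3.83 CPM in the CD24- libraries and 9.75, 14.96 and 12.5 CPM in the CD24+ libraries. The groups did not overlap, at 20 to 34 reads against 62 to 265 reads a library. Nrg1 had a log2 fold-change of 2.21 (SE 0.26, adjusted p = 6.31e-05), a 4.64-fold higher level with the widest standard error of the 8 tested genes.

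Pdgfc encodes PDGF-C, a chain that is secreted as a latent dimer and activated by proteases. It had 9.68, 9.67 and 7.10 CPM in the CD24- libraries and 39.2, 42.1 and 51.9 CPM in the CD24+ libraries. Every CD24+ library exceeded every CD24- library. Pdgfc thus had a log2 fold-change of 2.34 (SE 0.16, adjusted p = 1.33e-06), a 5.05-fold higher level.

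Pdgfa encodes the PDGF-A chain. It had 14.6, 18.3 and 20.96 CPM in the CD24- libraries and 33.3, 23.0 and 34.0 CPM in the CD24+ libraries. The groups did not overlap, but CD24+ replicate 2 lay near the highest CD24- library. Its log2 fold-change was 0.74 (SE 0.18, adjusted p = 0.00676), a 1.67-fold higher level and the smallest of the called changes.

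Pdgfb encodes the PDGF-B chain and was sparse. It had 1, 1 and 0 reads in the CD24- libraries and 9, 13 and 31 reads in the CD24+ libraries, or 2 against 53 in all. Scaled to gene reads the ratio was 17.8 with a 95% counting interval from 4.68 to 150, and the gene was below the filter of the main test. With no filter on low counts its log2 fold-change was 3.98 (adjusted p = 0.000363), and DESeq2 gave 4.17 (adjusted p = 0.00259).

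Hgf, the ligand of MET, had 4 reads, all in CD24+ replicate 2. The CD24- libraries held 0 Hgf reads, where 3 reads over the group correspond to 0.104 CPM, and expression below that level was not detectable at this depth. The Hgf reads were from 4 distinct sequences, 2 of which matched an Hgf transcript.

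For 6 of the 7 called genes a median-coverage estimate (quantile normalization, regularizer of 10 added before the ratio) kept the direction and the call with smaller values. Its log2 ratios were 0.84 for Ereg, 0.51 for Pdgfc, 0.42 for Pdgfa, -0.93 for Tgfa, -0.50 for Areg and -0.21 for Btc, and Nrg1 had no value there. It follows steps the study describes but takes 1 GENCODE M21 transcript a gene, because those used by the study are not stated. The added 10 draws ratios of low genes toward 0, and Cd24a had 1.38 there, against 2.91.

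Reads were compared per kilobase of 1 transcript a gene, the longest basic protein-coding one in GENCODE M21, counting every read located on it. On this RPKM scale (CPM per kilobase) the order of mean levels in CD24- cells was Areg (54.6 ± 4.05, SD, n = 3), Hbegf (40.3 ± 6.82), Tgfa (35.0 ± 3.23), Pdgfa (11.7 ± 1.42), Btc (3.75 ± 0.18), Pdgfc (2.48 ± 0.41), Ereg (2.18 ± 0.43), Nrg1 (0.667 ± 0.31), Pdgfb (0.0346 ± 0.036) and Hgf (0). Neighbours in that order whose libraries overlapped were Hbegf with Tgfa, Pdgfc with Ereg, and Pdgfb with Hgf. In CD24+ cells the order was Hbegf (36.0 ± 4.24), Areg (31.4 ± 8.40), Pdgfa (21.4 ± 4.19), Ereg (20.4 ± 1.97), Pdgfc (12.4 ± 1.87), Tgfa (11.3 ± 1.62), Nrg1 (3.55 ± 0.50), Btc (1.89 ± 0.21), Pdgfb (0.427 ± 0.18) and Hgf (0.0109 ± 0.019). There the levels of Hbegf and Areg, Pdgfa and Ereg, and Pdgfc and Tgfa overlapped between libraries. Ereg thus moved from the seventh place to the fourth and Tgfa from the third to the sixth. The full transcript length was used, although reads across exon junctions were mostly lost. Transcripts of short exons, such as Areg-201 (6 exons in 1215 bases), can thus rank too low beside Ereg-201 (5 exons in 4128 bases). Shares of the EGFR ligands and PDGF chains below carry the same limit.

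The 5 EGFR ligands together had 130.1, 125.4 and 151.8 RPKM in the CD24- libraries and 118.6, 89.3 and 95.1 RPKM in the CD24+ libraries. The CD24+ sums were the lower ones in every library, and the groups did not overlap. With 3 libraries a group, the smallest two-sided p of an exact permutation test is 0.1. Within that sum the share of Ereg was 1.94%, 1.35% and 1.53% in CD24- libraries and 19.1%, 21.3% and 20.6% in CD24+ libraries. The share of Tgfa was 25.3%, 26.5% and 25.5% against 11.1%, 11.4% and 11.1%, and the share of Areg was 40.9%, 41.0% and 39.0% against 34.6%, 30.2% and 27.4%. Hbegf went the other way, at 28.9%, 28.1% and 31.7% against 33.4%, 35.1% and 39.1%. Btc held 3.04%, 2.94% and 2.37% against 1.80%, 1.98% and 1.88%. These shares are tied to one another, since they add up to the whole.

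**Figure D2:**
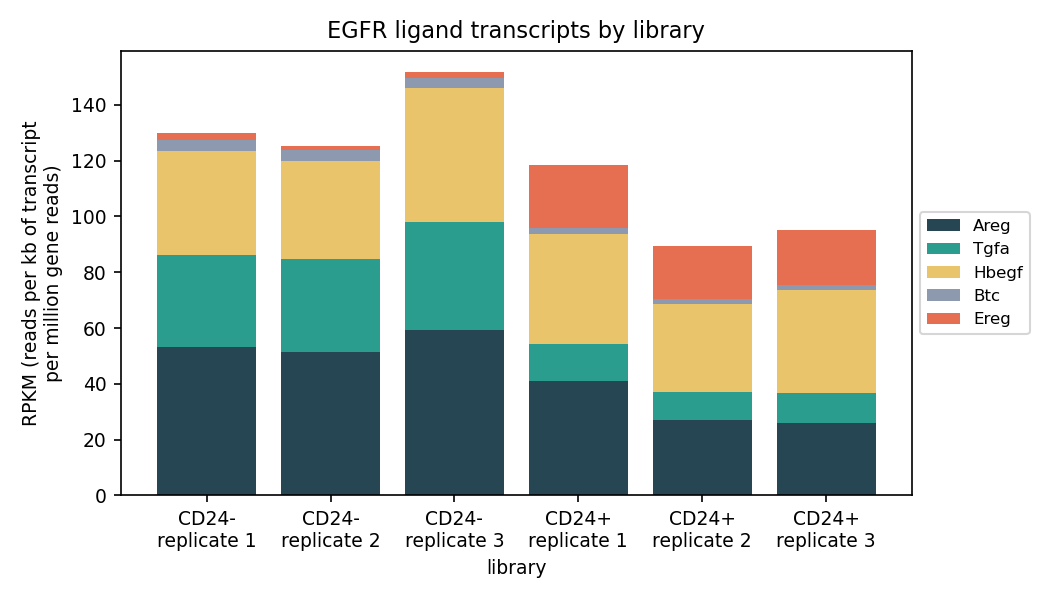
Stacked levels of 5 EGFR ligand genes in each library, in RPKM (CPM per kilobase of transcript), with 1 bar per library. The Ereg segment takes 1.35% to 1.94% of a CD24- bar and 19.1% to 21.3% of a CD24+ bar, and the Tgfa segment falls from 25.3% to 26.5% of the bar to 11.1% to 11.4%.

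Ratios within a library need no scaling between libraries. There were 0.122, 0.0902 and 0.0975 Ereg reads for each Areg read in the CD24- libraries and 1.63, 1.93 and 2.18 in the CD24+ libraries. The ratio of Hbegf to Tgfa reads was 1.08, 0.996 and 1.16 in CD24- and 2.49, 2.84 and 3.32 in CD24+ libraries. For Pdgfc to Pdgfa it was 0.662, 0.528 and 0.339 against 1.17, 1.83 and 1.52. In each of these ratios all CD24+ values lay above all CD24- values. The first gene of each pair was the one with the larger log2 fold-change. That direction therefore follows from the gene values above and adds no separate result.

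The PDGF chains summed to 13.5, 13.9 and 15.4 RPKM in the CD24- libraries and to 35.5, 28.5 and 38.7 RPKM in the CD24+ libraries. Pdgfc made up 20.2%, 19.5% and 13.1% of that sum in CD24- and 30.9%, 40.7% and 37.5% in CD24+ libraries. Pdgfa remained the larger part in every library.

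Ereg and Areg are neighbours on chromosome 5 of GRCm38, in a cluster that also holds the EGF family ligands Epgn (epigen) and Btc. Ereg lies from 91074622 to 91093646 and Areg from 91139599 to 91148432, both on the plus strand, and Btc from 91357261 to 91402994 on the minus strand. Epgn had 0.989 ± 0.22 CPM in CD24- and 2.75 ± 0.76 CPM in CD24+ cells, a log2 fold-change of 1.37 (SE 0.32, adjusted p = 0.00529). It reached 1 CPM in 1 CD24- and 3 CD24+ libraries, so it passed the filter on low counts through the group where it was high. The tested genes in order were therefore Epgn and Ereg, 39.4 kb apart and both higher, then Areg and Btc, which lie 45.95 kb beyond Ereg and 208.8 kb beyond Areg and were both lower. Rchy1, the next tested gene beyond Btc, had a log2 fold-change of -0.0038 (adjusted p = 0.976). On the Epgn side, Mthfd2l had -0.06 (adjusted p = 0.749). Farther out on that side, Cxcl1 (-0.67, adjusted p = 0.00142), Cxcl5 (1.73, adjusted p = 1.77e-06) and Rassf6 (-4.07, adjusted p = 5.15e-08) were called. Changes in both directions were thus not confined to the ligand cluster.

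**Figure D3:**
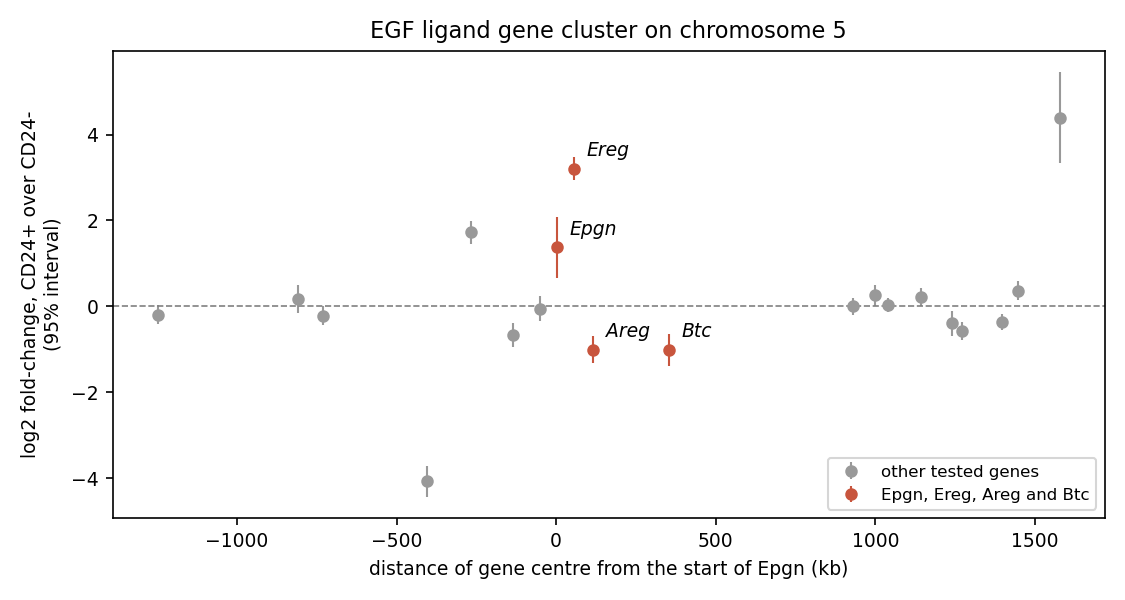
Log2 fold-change of CD24+ over CD24- cells with its 95% interval for each tested gene around the ligand cluster on chromosome 5, against the distance of the gene centre from the start of Epgn in kb. Epgn and Ereg sit at 1.37 and 3.20 above the dashed line at 0, and Areg and Btc both sit at -1.01 below it. Grey points are the other tested genes, some of which were also called, in both directions.

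The nearest tested protein-coding genes on either side of the other tested ligands were also compared. They lay from 50.4 kb (Pfdn1 from Hbegf) to 1184 kb (Tmem144 from Pdgfc) away, so untested genes can lie between. Both neighbours of Tgfa were lower in CD24+ cells, as Tgfa was. Add2, next to Tgfa (chromosome 6 from 86195223 to 86275719), had a log2 fold-change of -4.78 (adjusted p = 2.36e-06) and Snrpg on its other side -0.29 (adjusted p = 0.0281). Fam20c, next to Pdgfa (chromosome 5 from 138976014 to 138997370), had 3.52 (adjusted p = 1.87e-06), and Cox19 on its other side -0.23 (adjusted p = 0.203). On the sides of Pdgfc (chromosome 3 from 81036416 to 81214040), Tmem144 fell by 1.94 on the log2 scale (adjusted p = 0.000907) and Ctso had a log2 fold-change of 0.80 (adjusted p = 0.000799). Fut10 and Wrn, on the sides of Nrg1 (chromosome 8 from 31814551 to 32884029), and Pfdn1 and Eif4ebp3, on the sides of Hbegf, had adjusted p-values of 0.594, 0.999, 0.247 and 0.0885.

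Which part of each gene gave the reads differed between ligands. Of the reads that matched a transcript of the gene, 82.6% were coding in Areg, and 86.5% in Ereg, 89.9% in Tgfa and 70.7% in Btc lay in the 3′ UTR. Reads of the gene that matched no GENCODE transcript were a larger share in Areg, at 27.3%, 32.4% and 33.8% in CD24- and 18.1%, 27.0% and 22.1% in CD24+ libraries, than among all gene reads, where the share was 2.40% to 5.10%. Hbegf was like Areg in this, at 24.7% to 25.3% in CD24- and 16.8% to 24.6% in CD24+ libraries. CD24+ replicate 1 had the lowest share in both genes and also over all genes, at 2.40%.

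Each kind of read was fitted apart and scaled to its own total over all genes, not to all gene reads. Sizes of change can therefore not be set side by side between the 2 kinds. Tested apart, the 2 kinds of read gave the same directions for the called genes that had a value. On reads in a transcript, where 45.8% of 10955 genes were called, the log2 fold-changes were 3.22 for Ereg and -0.86 for Areg (adjusted p = 6.19e-08 and 0.00107). On reads in no transcript, where 23.7% of 7737 genes were called, they were 3.35 for Ereg (adjusted p = 5.18e-10), -1.05 for Areg (adjusted p = 0.000194), -1.40 for Tgfa (adjusted p = 0.000302), 2.21 for Nrg1 (adjusted p = 0.000323) and 1.06 for Pdgfa (adjusted p = 0.00358). Hbegf was not called on either kind, with 0.05 on reads in no transcript (adjusted p = 0.836). That value is relative to all reads in no transcript. Their share of gene reads was 4.05% to 5.10% in CD24- and 2.40% to 3.80% in CD24+ libraries. So the Hbegf value does not show equal levels on the scale of gene reads. Btc and Pdgfc had 12 and 38 reads in no transcript and no value there.

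**Figure D4:**
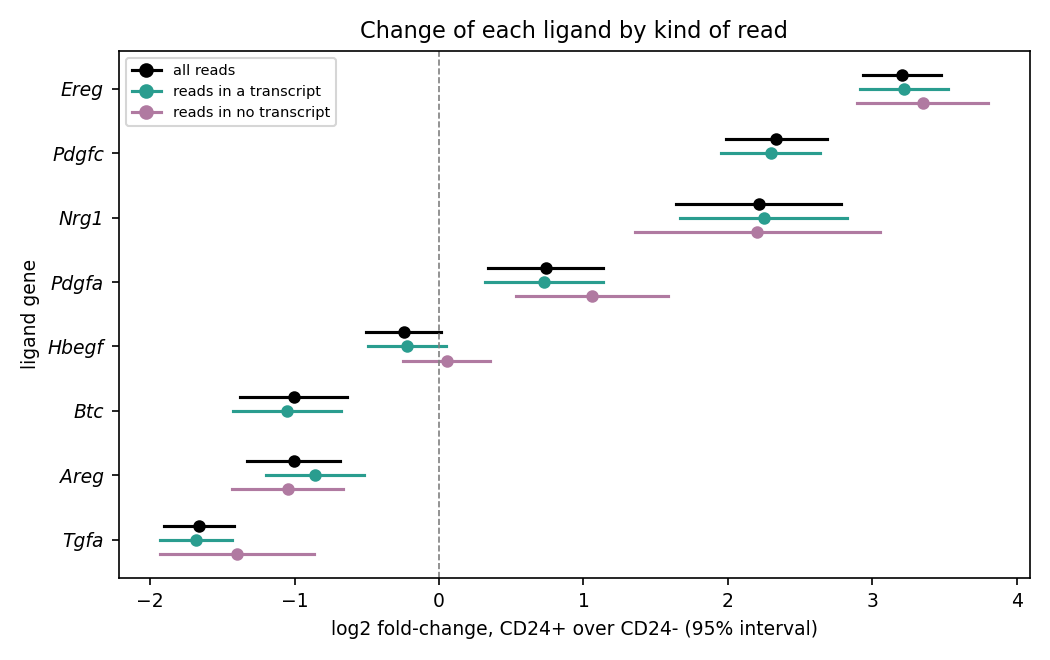
Log2 fold-change of CD24+ over CD24- cells with its 95% interval for the 8 tested ligand genes, for all reads in black, reads in a transcript in green and reads in no transcript in purple. Each kind was scaled to its own total, so sizes are not comparable between colours. The intervals of Hbegf include 0 for each kind of read, and those of Ereg lie between 2.90 and 3.80 for all of them.

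Some reads at these genes were not annotated to the gene itself and so were not in its CPM values and main test above. The RPKM levels and shares do include those located on the chosen transcript. Nrg1 had 577 such reads, 368 of them in its 3′ UTR, where no read was annotated to Nrg1, and they came to 1.58, 1.33 and 2.82 CPM in CD24- and 10.5, 12.5 and 12.3 CPM in CD24+ libraries. Pdgfa had 1062, at 9.57, 7.39 and 10.6 against 20.8, 15.8 and 20.3 CPM. At Tgfa 921 reads carried another annotation, at 19.6, 20.6 and 25.1 against 7.39, 6.55 and 6.91 CPM. In these 3 genes the reads not annotated to the gene were higher or lower in the same group as the annotated ones, with no overlap between groups. On annotated reads, the groups did not overlap for 57.3% of all genes tested. Both kinds of read come from the same libraries, so they are not separate evidence. The 172 reads at Ereg with another annotation came to 0.0948 to 0.736 against 2.67 to 4.19 CPM.

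Nrg1 and Pdgfa have several annotated first exons. The group of overlapping Nrg1 first exons from 32009010 to 32009491 held 12 reads in the CD24- and 123 in the CD24+ libraries. The first exon farthest upstream, from 32883516 to 32884029, held 0 reads in all 6 libraries, and that from 31916272 to 31918391 held 2. In Pdgfa the first exons from 138994709 to 138995037 held 86 against 220 reads, and those from 138995734 to 138996087 held 7 against 23. These sums, like those of Nrg1, are not scaled to depth. The deepest libraries were CD24+ replicates 2 and 3, with 17765081 and 19100844 gene reads, so the sums overstate the differences. The 69-base alternative exon 6 of Pdgfa-201 held 7 reads in all, where exon 4 of Pdgfa-202, with 188 bases, held 337. The first-exon counts hold only reads that lie inside the exon, and the counts of exons 6 and 4 take each read at its lowest base. Reads across junctions were mostly lost in the exact match, so a short exon can hold fewer reads for its length than a long one.

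The counts carry no strand, and annotated genes overlap some ligands. Ereg overlaps Gm19610, Pdgfc Gm16000, Pdgfa 6330403L08Rik and Tgfa Gm43917, so in these counts reads of these partners cannot be told apart from those of the ligands. With only reads that matched transcripts of 1 gene, the log2 fold-changes were 3.21 for Ereg, 2.32 for Pdgfc, 0.84 for Pdgfa and -1.67 for Tgfa. All of these were called. Nrg1, Pdgfb and Hgf also overlap other annotated genes, and Areg, Btc and Hbegf had no such partner.

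The receptors of these ligands changed in part. The EGF receptors with enough reads were slightly lower in CD24+ cells, both PDGF receptors were higher and Met was lower. Egfr had 43.0, 38.4 and 43.5 CPM in CD24- and 34.3, 32.2 and 35.3 CPM in CD24+ libraries, with a log2 fold-change of -0.30 (SE 0.10, adjusted p = 0.0277). Erbb2, a co-receptor with no ligand of its own, had 52.8, 57.2 and 66.7 against 46.2, 47.8 and 50.2 CPM, with a log2 fold-change of -0.29 (SE 0.10, adjusted p = 0.0406). The groups did not overlap for either gene, but both changes were small. Over all genes tested, 46.1% were called and the groups did not overlap for 57.3%.

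Erbb3 and Erbb4, the receptors of Nrg1, had too few reads for the test. Erbb3 had 26, 15 and 2 reads in the CD24- and 2, 4 and 12 reads in the CD24+ libraries, and Erbb4 had 3 reads in each group. The CD24- libraries of Erbb3 thus differed widely among themselves.

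Pdgfrb, the receptor best known for binding the PDGF-B chain, had 5.47, 5.59 and 3.38 CPM in CD24- and 49.9, 72.5 and 77.5 CPM in CD24+ libraries. The log2 fold-change was 3.79 (SE 0.21, adjusted p = 4.57e-07), a 13.8-fold higher level. Pdgfra had 6.10, 8.43 and 4.17 against 8.34, 13.5 and 11.9 CPM, with a log2 fold-change of 0.87 (SE 0.25, adjusted p = 0.0165). The groups overlapped for Pdgfra and stood far apart for Pdgfrb. Met, the HGF receptor, had 441.2, 439.2 and 575.2 against 307.5, 351.0 and 284.7 CPM, with a log2 fold-change of -0.63 (SE 0.12, adjusted p = 0.00198).

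**Figure D5:**
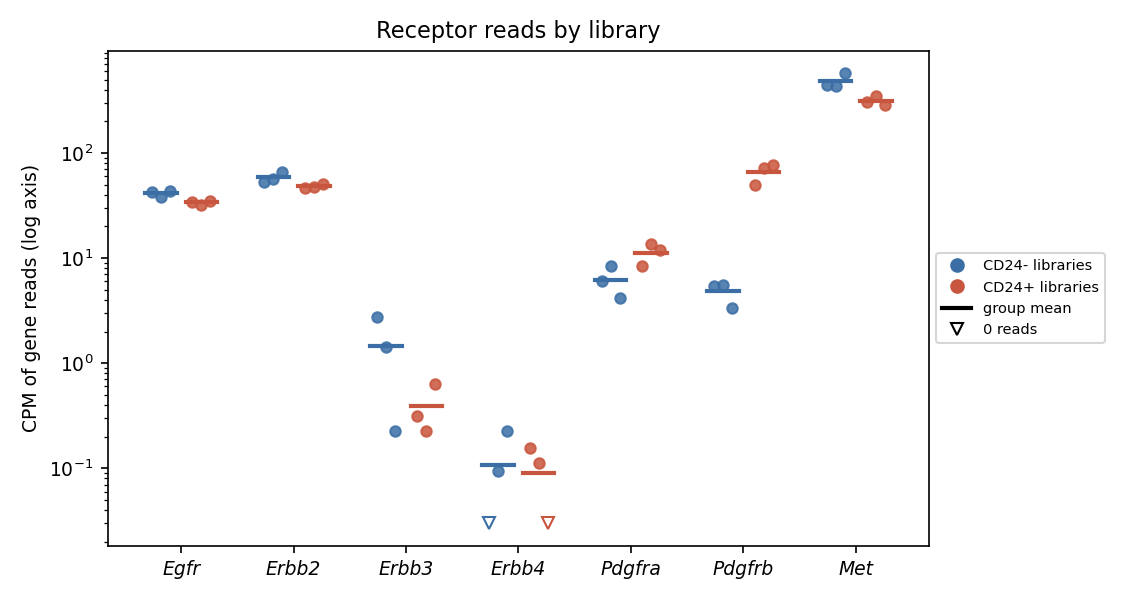
Reads of the receptor genes in each library, in CPM of gene reads on a log axis, with CD24- libraries in blue, CD24+ libraries in red and a bar at each group mean (n = 3); open triangles mark 0 reads. Pdgfrb rises from 3.38 to 5.59 CPM in CD24- libraries to 49.9 to 77.5 CPM in CD24+ libraries, and Met is the most abundant receptor by reads in both groups.

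Beyond the ligands themselves, 68 genes of these pathways were listed, 60 had reads under their symbol and 50 were tested. In CD24+ cells 14 of them rose and 11 fell, where 46.1% of all genes tested were called, and their median log2 fold-change was 0.06. With each distinct sequence counted once, 13 were called, 9 higher and 4 lower, where 33.4% of 11078 genes were called. The number that fell also depended on single libraries. Without CD24- replicate 1, 13 rose and 6 fell, and without CD24+ replicate 3, 12 rose and 7 fell. Among the 3 other ligands tested, Epgn rose and Egf and Nrg4 had log2 fold-changes of 0.11 and 0.23 (adjusted p = 0.854 and 0.228). Of the 7 co-receptors and surface partners, 4 rose and 2 fell: Nrp2 (log2 fold-change 0.67), Gpc1 (0.56), Sdc4 (0.42) and Cd9 (0.40), a tetraspanin that binds the HB-EGF precursor, rose, and Cd44 (-0.30) and Sdc1 (-0.27) fell.

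Of 9 tested genes that shed or activate the ligands, 2 rose and 1 fell, where 46.1% of all genes tested were called in either direction. The main sheddases of EGF ligands, Adam17 and Adam10, had log2 fold-changes of -0.08 and -0.01 (adjusted p = 0.463 and 0.941). The iRhom genes, whose products carry ADAM17 to the surface, went apart: Rhbdf1 had 96.5, 95.6 and 103.1 CPM in CD24- and 141.9, 142.0 and 158.9 CPM in CD24+ libraries (log2 fold-change 0.59, adjusted p = 0.000215), and Rhbdf2 had 108.5, 111.1 and 85.3 against 66.5, 45.0 and 64.0 CPM (log2 fold-change -0.81, adjusted p = 0.00167). Adam9 had a log2 fold-change of 0.21 (adjusted p = 0.0497). Furin, a proprotein convertase, had 0.11 (adjusted p = 0.224) and Plat and Plau, plasminogen activators, had 0.44 and -0.13 (adjusted p = 0.0962 and 0.401).

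Of 2 tested inhibitors of activation, Timp3, an inhibitor of ADAM17 and other metalloproteases, rose from 4.25 ± 1.54 to 64.7 ± 12.6 CPM (log2 fold-change 3.91, adjusted p = 5.68e-07). Of 11 tested receptor attenuators, Lrig3 rose (0.842 ± 0.25 to 9.004 ± 1.02 CPM, log2 fold-change 3.44, adjusted p = 2.4e-06), and the ubiquitin ligase genes Cbl (-0.49) and Rnf41 (-0.26) fell. Lrig3 too reached 1 CPM in 1 CD24- and 3 CD24+ libraries and passed the filter through the latter. Among 13 tested adaptors and first effectors, Pik3r1 (log2 fold-change 0.87), Shc1 (0.72) and Ptpn11 (0.45) rose, and Gab2 (-1.10), Frs2 (-0.37) and Grb2 (-0.23) fell. The calls in these lists, 1 of 2, 3 of 11 and 6 of 13, stand beside 46.1% of all genes tested.

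The genes whose pattern over the 6 libraries was most like that of the 3 ligands with the most reads were found by the Euclidean distance of centred log2 CPM, among 9810 genes. Among them were Tdrd7, Trim39 and Cflar for Hbegf (distances 0.0799, 0.0973 and 0.161), Krt19, Fam83g and Tbc1d2 for Tgfa (0.187, 0.188 and 0.237), and Tnfrsf23 and Rhpn2 for Areg (0.191 and 0.204). This is a description over 6 libraries in 2 groups, so genes with a like difference between the groups are close by that alone.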

How the data were processed

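mRNA of 3 CD24- and 3 CD24+ plates was sequenced (TruSeq v2, not stranded, 51-base single-end reads). The authors trimmed 2 bases from each end, collapsed the 47-base reads, matched each distinct sequence exactly to the mouse genome and gave it 1 location and 1 annotation. They deposited the count of each sequence per library, not normalized. The submitters' processing notes name the build mm9; neither the mapping tool nor the annotation source is named there (not given in the sources used here). An exact match loses reads over exon junctions and sequence variants, and genes with near-identical copies can lose reads.

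The deposited counts were summed per gene annotation (14766 of 16024; 12625 match a current symbol). Repeats, small RNAs and unannotated reads were left out. Genes passing filterByExpr were tested with edgeR 4.0.16 in R 4.3.3 (TMM, quasi-likelihood F test, Benjamini-Hochberg threshold 0.05) on all genes, checked on simulated data. Replicates are plates, so p-values measure the spread between plates; libraries of 1 group differed by more than sampling noise (chi-square over its degrees of freedom, 1.75 or more). Reads were matched exactly to GENCODE M21 transcripts (GRCm38), which gives all positions. DESeq2 1.42.0 and the other alternatives are in the closing section. Named genes are the ligands, their receptors, called genes of the pathway lists, the nearest tested genes, the 3 most alike genes and Cd24a. Egf, Nrg4, Adam17, Adam10, Furin, Plat, Plau, Mthfd2l, Cxcl1, Cxcl5, Rassf6 and the marker genes were named after their values were seen. The ligands and lists were chosen with earlier results of these data known. Of the genes chosen by these rules and lists, some are not reported here.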

Additional observations from a re-analysis of the deposited data

How the results depend on the processing

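Over 16 alternatives, which included library totals without TMM, no filter on low counts, thinning, DESeq2 and the median-coverage estimate, all 127 values of the tested ligands kept their direction and side of the threshold. A filter of at least 1 CPM in 3 libraries, 1 of the 16, repeated the main test. It gave the same 5127 calls and the same ligand values, so it adds no separate check. The ligands called numbered 6 to 8, against 7, and 7 or 8 when 1 library was left out. Of the other pathway genes, 13 were called with each distinct sequence counted once, against 25, and over all genes 3697, against 5127, and the cause was not tested; leaving out 1 library gave 19 to 26 and 4069 to 5358. Over all alternatives the calls over all genes ran from 3660 (median coverage) to 5525 (reads matching 1 gene). Cd24a had a log2 fold-change of 1.38 under median coverage, against 2.91, and 2.71 to 3.05 when 1 library was left out. Pdgfb had too few reads for the main test and rests on 2 CD24- reads.

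Plates with the same replicate number did not deviate together (correlations 0.01, -0.27 and -0.32), so the number was not taken as a pairing, and 0 of the 6 libraries correlated best with their own number in the other group. With the number as a replicate block, 7 ligands, 20 other pathway genes and 4493 genes in all were called.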
